A study of Mus musculus with 6 samples.

Results

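The genes described are 44 human genes of amino acid synthesis, amino acid transport and transfer RNA (tRNA) charging. They are grouped as a response linked to the transcription factor ATF4, and whether ATF4 controls each of them was not tested. They were chosen as the rows of the expression table with exactly 44 given symbols, out of 23284 gene symbols in the table. All 44 were found, and all 44 passed the filter on low values (a mean of at least 1 FPKM over the 6 tumours), as did 12586 genes in all. By role they are 5 regulators and feedback genes, 14 genes of synthesis, 7 of transport and 18 cytosolic tRNA synthetases.

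RNA was sequenced from 6 xenograft tumours of STS26T, a single human cell line derived from a malignant peripheral nerve sheath tumour. In every case 1000000 cells had been placed under the skin of an athymic nude mouse, a strain without a working thymus that lacks mature T cells but keeps B cells, natural killer cells and myeloid cells. After 1 week, at a mean volume of about 100 mm3, treatment began and lasted 3 weeks. The anti-ENG group (3 tumours) received TRC105, an antibody to human endoglin, with M1043, an antibody to mouse endoglin. The IgG control group (3 tumours) received control IgG, and both groups were injected into the peritoneum 2 times a week at 10 mg/kg. The sources used here do not give the age of the mice. The labels' codes share a number between IgG control 2 and IgG control 3 and between anti-ENG 1 and anti-ENG 2. Within each of these pairs the number is followed by L in the first tumour and by R in the other. Whether such a pair came from the left and right side of 1 mouse is not stated. If so, the tumours of a pair would not be independent. The tests treat the 6 tumours as independent, so p-values measure only the spread between these 6 tumours.

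ATF4 is made when cells slow general translation by phosphorylating the initiation factor eIF2, which happens, among other stresses, when uncharged tRNAs signal a lack of amino acids. It then switches on genes that build amino acids, carry them into the cell and load them onto tRNAs. ATF4 itself is controlled largely at translation, so its RNA level is not a measure of its protein. Growing tumour cells draw on the same enzymes for serine, one-carbon units and aspartate, which feed nucleotide synthesis.

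Values are FPKM, which divides the fragments of a gene by its transcript length and by the library's mapped fragments. This is a scale per length on which genes can be compared, and the total depth is unknown. Sums of FPKM were 443148, 413506 and 410786 in IgG control 1, 2 and 3 and 475146, 446100 and 457265 in anti-ENG 1, 2 and 3. Every anti-ENG sum was thus above every IgG sum. The 44 genes took 0.422, 0.443 and 0.473% of the sum under IgG and 0.466, 0.440 and 0.466% under anti-ENG. These shares overlapped, and the highest was in IgG control 3. On the first principal component of all genes tested (44.6% of the variance), IgG control 1 was at one end and anti-ENG 1 at the other. Where it matters, results are also given without this pair, named the end tumours here. The endoglin gene ENG differed by -0.26 on the log2 scale (SE 0.30, limma adjusted p = 0.751), and RNA tells nothing of antibody binding. Of 8 Schwann cell and neural crest markers, NES and SOX9 were between 19.1 and 64.1 FPKM in every tumour, while S100B and SOX10 were at 0.19 FPKM or less. The reads were aligned to the human genome, so mouse RNA can enter only where it aligns there. Of 8 endothelial markers, VWF, KDR and CLDN5 were under 0.1 FPKM, PECAM1 (0.873 to 2.15 FPKM) and TEK (0.679 to 2.54 FPKM) passed the filter, and the list summed to 2.55 to 5.38 FPKM. The 8 leukocyte markers summed to 63.7 to 122 FPKM, of which CD68, a lysosomal protein not confined to leukocytes, made up 58.4 to 115 FPKM, while PTPRC was at 0.184 to 1.13 FPKM and CD3E at 0.

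The comparison asks how blocking endoglin on tumour and host cells relates to the RNA of these 44 genes. PSAT1 and ASNS had the largest differences, with mean levels 1.95 and 1.86 times as high in the anti-ENG group as in the IgG group. Most genes of synthesis and charging had higher estimates in the anti-ENG group, with means 1.02 to 1.36 times as high for all but those of PSAT1 and ASNS, while the transporters went both ways. None of the 44 passed limma's adjusted threshold of 0.05, and the smallest adjusted p among them was 0.529. In all 12586 genes tested 0 passed (0% called), and the smallest adjusted p was again 0.529. At an unadjusted p under 0.05 stood 8 of the 44, all of them higher in the anti-ENG group, against 9.17% of all genes in either direction, 5.56% in the higher and 3.61% in the lower direction. With every tumour rescaled to the same sum of FPKM, 2 of the 44 were higher and 1 lower at that p, and the balance over all genes turned from 700 higher and 454 lower to 168 higher and 1088 lower. In 12 of the 44 the 3 anti-ENG tumours all lay above the 3 IgG tumours, 27.3% of the members, and in 0 did they all lie below. Among all genes tested the groups lay apart in 17.3%, with anti-ENG above in 10.6% and below in 6.75%. Same-sum rescaling left 5 of the 44 above and put 4 below (DDIT3, AARS, MARS and VARS), against 3.46% above and 14.2% below over all genes. Upper quartile rescaling gave 9 above and 0 below, quantile normalization 9 and 1, and cyclic loess normalization 9 and 2. Over all genes the shares above were 8.15%, 8.66% and 7.73% in the same order, and the shares below lay between 5.92% and 8.08%. With 3 tumours against 3, an exact two-sided permutation test cannot give a p under 0.1, the value that any gene with groups apart receives.

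The median log2 fold change of the 44 genes was 0.15, on the log2(FPKM + 1) scale, against 0.0065 for all genes tested. Estimates were above 0 in 36 and below 0 in 8 of the 44 genes, against 51.2% and 48.8% of all genes. The count above 0 was 33 with upper quartile rescaling, 30 with quantile or cyclic loess normalization and 26 with same-sum rescaling. Same-sum rescaling also moved the median of all genes to -0.100, and relative to it the median of the 44 was 0.15 higher. Of the 12 genes with groups apart, 5 kept them apart, with anti-ENG above, under all 5 scalings: PSAT1, MTHFD1, GOT1, EPRS and KARS. The share of all genes that did so was not counted, so how unusual these 5 are cannot be said. Because the tumours are bulk tissue, more cells of a type and more RNA per cell cannot be told apart.

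By role, the medians were 0.25 for synthesis, 0.19 for the synthetases, 0.11 for the regulators and -0.031 for transport. Leaving out anti-ENG 2 gave 0.40 for synthesis, 0.23 for the regulators and 0.11 for transport. The synthetase median was 0.12 without anti-ENG 1, that of the regulators 0.024 without IgG control 2 and 0.042 without anti-ENG 3, and that of transport 0.0081 without IgG control 2. Without IgG control 1, IgG control 3, anti-ENG 1 or anti-ENG 3 the transport median stayed below 0, at -0.00065, -0.066, -0.0097 and -0.078. Groups lay apart in 6 of 14 synthesis genes, 6 of 18 synthetases, 0 of 5 regulators and 0 of 7 transporters. Of all genes in the same ranges of levels, 18.9%, 22.7%, 17.1% and 17.5% had groups apart. In roles of 5 and 7 genes, a count of 0 is near such a share. The tumour that topped a gene was most often anti-ENG 1, in 21 of the 44 genes (47.7%), against 30.5% of all genes tested. Next came anti-ENG 3, in 12 of the 44 (27.3%) against 12.1% of all genes. IgG control 1 was lowest in 13 of the 44 (29.5%), against 21.5% of all genes. Anti-ENG 2 was highest in 2 of the 44 genes (4.55%), against 13.6% of all genes, and lowest in 8 (18.2%), against 13.9%.

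**Figure D1:**
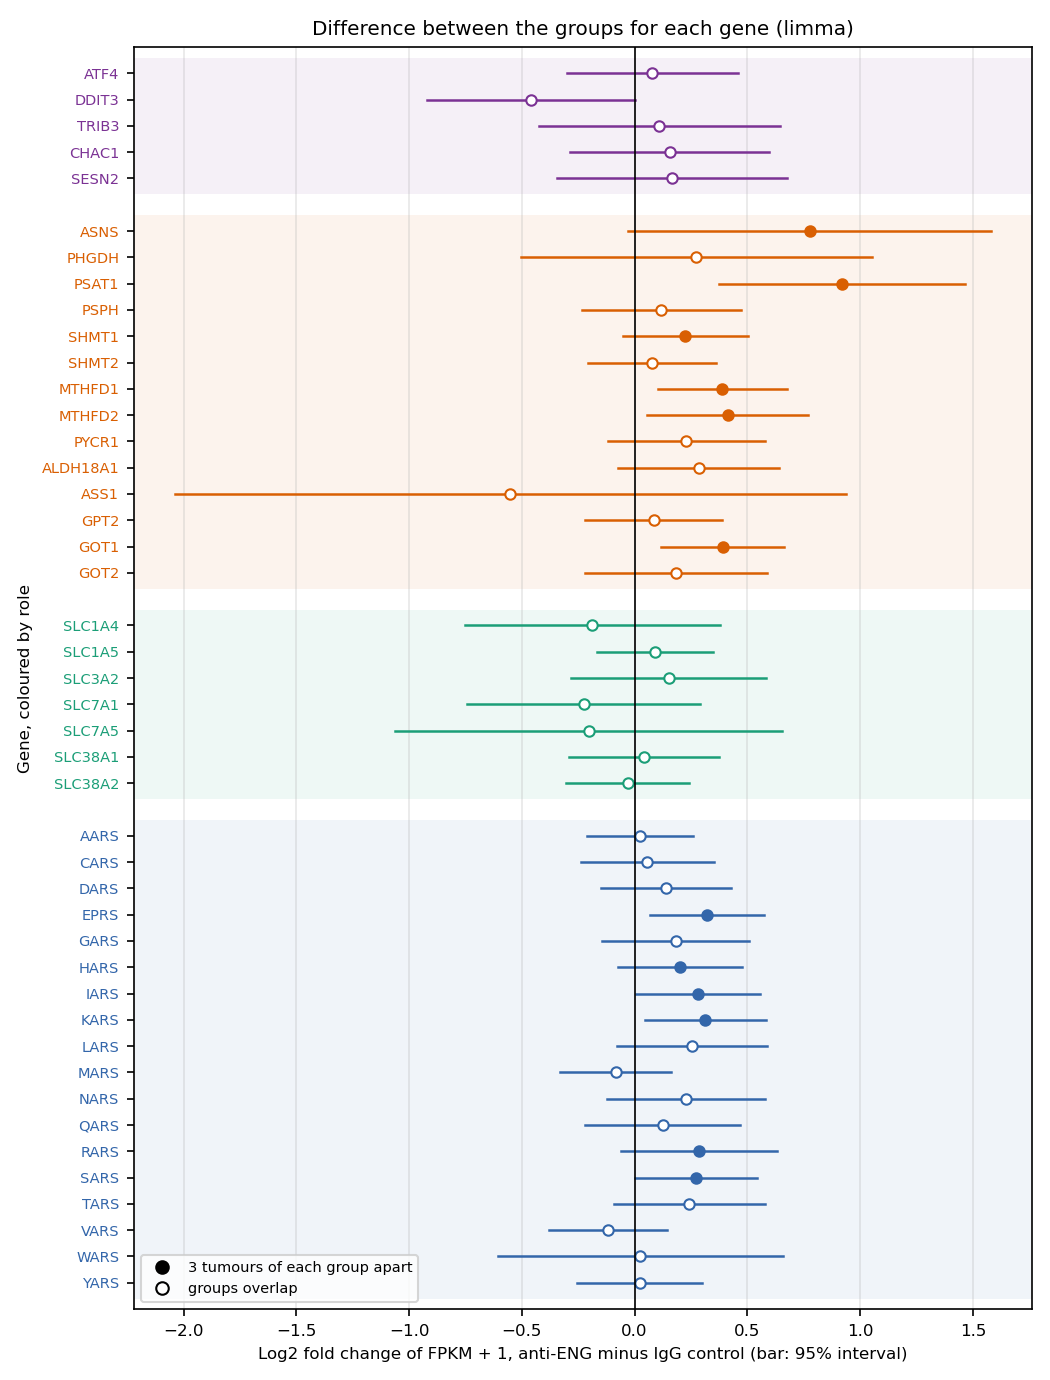
Log2 fold change of FPKM + 1 between the anti-ENG and IgG groups for each of the 44 genes, with its 95% interval from limma, coloured by role. Filled points mark the 12 genes whose 3 anti-ENG tumours all lay above the 3 IgG tumours under the deposited scaling, 5 of which kept this under all 5 scalings, and the 7 transporters (green) all have intervals that span 0.

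Among the regulators, ATF4 RNA was abundant and overlapped between the groups. ATF4 stood at 186, 176 and 209.8 FPKM under IgG (tumours 1, 2 and 3) and at 234, 164 and 211 FPKM under anti-ENG. The lowest and the highest value were both under anti-ENG, and the log2 fold change was 0.078 (SE 0.16, limma adjusted p = 0.863). It turned to -0.042 with same-sum rescaling, -0.058 with quantile and -0.12 with cyclic loess normalization. ATF4 was the most abundant of the 44 genes, at percentile 97.6 of all genes tested by mean level.

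DDIT3, which encodes the stress factor CHOP, a partner and target of ATF4, went the other way from most members. In IgG control 1, 2 and 3 the level of DDIT3 was 26.6, 32.7 and 19.6 FPKM, and in anti-ENG 1, 2 and 3 it was 17.1, 16.9 and 21.8 FPKM. The 3 anti-ENG values sat at the low end, but anti-ENG 3 exceeded IgG control 3, so the groups overlapped. Its log2 fold change was -0.46 (SE 0.20, limma adjusted p = 0.529). TRIB3, a pseudokinase that dampens ATF4 and CHOP, ran from 10.5 to 18.7 FPKM, with both extremes under anti-ENG. Its log2 fold change was 0.11, and -0.0030 with same-sum rescaling. CHAC1, which breaks down glutathione, lay between 1.05 and 1.86 FPKM, near the filter. SESN2, a leucine-binding inhibitor of the growth kinase complex mTORC1, lay between 2.14 and 3.82 FPKM. Their log2 fold changes were 0.16 (SE 0.19) and 0.17 (SE 0.22). In these 4 genes anti-ENG 2 was lowest in DDIT3, TRIB3 and CHAC1, and anti-ENG 1 in SESN2.

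**Figure D2:**
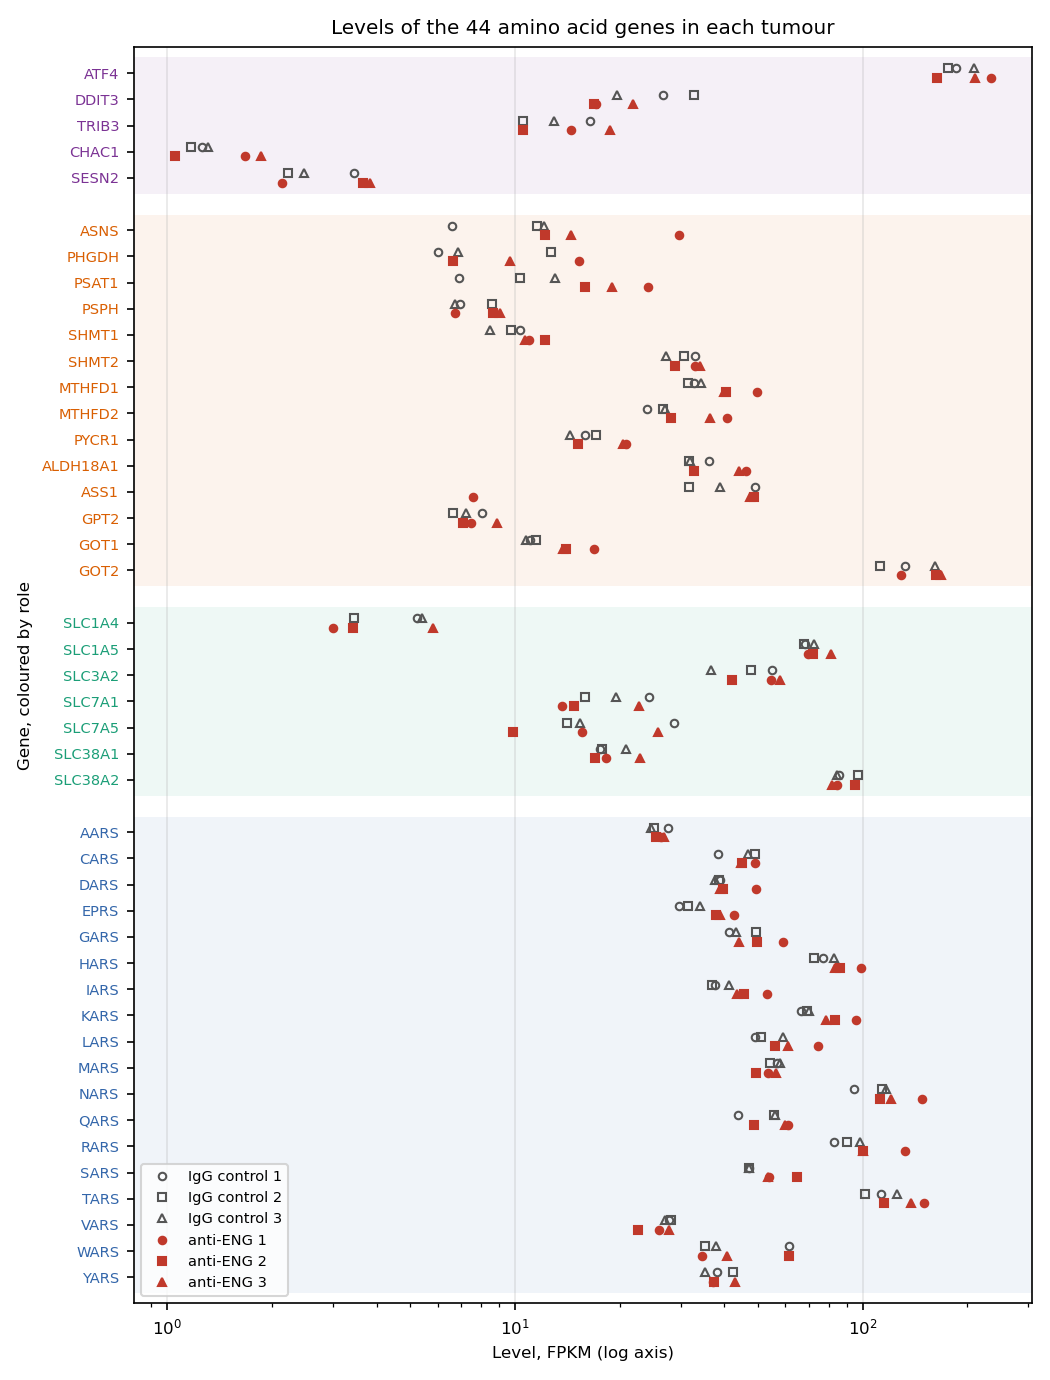
FPKM of each of the 44 genes in each of the 6 tumours on a log axis, with open grey symbols for the IgG group and filled red symbols for the anti-ENG group. Mean levels span from 1.39 FPKM for CHAC1 to 197 FPKM for ATF4, and the lone red point far to the left in the synthesis block is ASS1 in anti-ENG 1, at 7.59 FPKM.

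The serine pathway starts with PHGDH, which oxidises a glycolytic intermediate, goes on with the aminotransferase PSAT1 and ends with the phosphatase PSPH. No member had a larger log2 fold change than PSAT1, 0.92 (SE 0.23, 95% interval 0.37 to 1.47, limma adjusted p = 0.529). Levels of PSAT1 were 6.92, 10.3 and 13.0 FPKM in the 3 IgG tumours (1, 2 and 3) and 24.1, 15.9 and 19.0 FPKM in the 3 anti-ENG tumours. All 3 anti-ENG values were above all 3 IgG values under all 5 scalings. The estimate was 0.55 without the end tumours. PHGDH did not share this pattern. For PHGDH the IgG tumours held 5.99, 12.7 and 6.85 FPKM and the anti-ENG tumours 15.2, 6.64 and 9.67 FPKM, each in the order 1, 2 and 3. IgG control 2 was second highest, the groups overlapped, and the log2 fold change was 0.27 (SE 0.33). Without the end tumours, PHGDH turned to -0.20. PSPH stayed between 6.72 and 9.05 FPKM, a log2 fold change of 0.12 (SE 0.15). Along this 3-step path, then, the groups lay apart for the middle enzyme only, and the steps were not tested against each other.

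Serine hydroxymethyltransferases split serine into glycine and a one-carbon unit, SHMT1 in the cytosol and SHMT2 in mitochondria. SHMT2 was 2.37 to 3.21 times as abundant as SHMT1 per length in the 6 tumours. SHMT1 stood at 10.4, 9.75 and 8.48 FPKM under IgG (tumours 1, 2 and 3) and at 11.0, 12.2 and 10.7 FPKM under anti-ENG. The groups lay apart for SHMT1, by a small margin, but overlapped with same-sum rescaling, and the log2 fold change was 0.22 (SE 0.12, limma adjusted p = 0.548). SHMT2 lay between 27.2 and 34.1 FPKM in both groups, with a log2 fold change of 0.076 (SE 0.12) that turned to -0.042 with same-sum rescaling.

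MTHFD1 and MTHFD2, the cytosolic and mitochondrial enzymes that interconvert folate-bound one-carbon units, both had groups apart. In IgG control 1, 2 and 3 the level of MTHFD1 was 32.7, 31.4 and 34.3 FPKM, and in anti-ENG 1, 2 and 3 it was 49.8, 40.6 and 39.9 FPKM. All 3 anti-ENG tumours were at least 5.57 FPKM above every IgG tumour, and the log2 fold change was 0.39 (SE 0.12, limma adjusted p = 0.529). Levels of MTHFD2 were 24.05, 26.6 and 27.0 FPKM in the 3 IgG tumours (1, 2 and 3) and 40.9, 28.0 and 36.5 FPKM in the 3 anti-ENG tumours. Anti-ENG 2 exceeded the highest IgG value of MTHFD2 only slightly, and the groups overlapped with same-sum rescaling. Its log2 fold change was 0.41 (SE 0.15, limma adjusted p = 0.529). The ratio of MTHFD2 to MTHFD1 ran from 0.736 to 0.846 under IgG and from 0.691 to 0.915 under anti-ENG, with an exact permutation p = 0.9 (0.9 adjusted over the 8 ratios computed). Of the 7 serine, glycine and one-carbon genes, 7 had higher estimates under anti-ENG, with a median of 0.27, and 6 did with same-sum rescaling.

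ASNS, which makes asparagine from aspartate and is a much used reporter of ATF4 activity, had the second largest log2 fold change. For ASNS the IgG tumours held 6.57, 11.5 and 12.1 FPKM and the anti-ENG tumours 29.6, 12.2 and 14.5 FPKM, each in the order 1, 2 and 3. Anti-ENG 1 stood far above the rest, and IgG control 1 far below, while the other 4 tumours lay between 11.5 and 14.5 FPKM. The log2 fold change of 0.78 (SE 0.34, 95% interval -0.027 to 1.58, limma adjusted p = 0.529) was 0.41 without anti-ENG 1 and 0.16 without the end tumours. The groups lay apart by a margin of 0.0973 FPKM, and overlapped with upper quartile or same-sum rescaling. ASNS was 0.0695 to 0.104 times as abundant per length under IgG as NARS, the enzyme that loads asparagine onto its tRNA. Under anti-ENG this ratio was 0.108 to 0.199, so the groups did not overlap, which gives the smallest possible exact permutation p = 0.1, or 0.6 adjusted over the 8 ratios computed. These ratios were chosen after the levels were seen.

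ASS1, the arginine-making enzyme argininosuccinate synthase, was the synthesis gene with a lower estimate under anti-ENG, and 1 tumour decided its sign. ASS1 stood at 49.0, 31.7 and 38.8 FPKM under IgG (tumours 1, 2 and 3) and at 7.59, 48.7 and 47.6 FPKM under anti-ENG. The next lowest tumour had 4.18 times the level of anti-ENG 1, while anti-ENG 2 and 3 sat at the level of IgG control 1. The log2 fold change was -0.55 (SE 0.64) with anti-ENG 1 and 0.29 without it. Human ASS1 has processed pseudogenes, and the sources used here do not say how reads were shared among copies.

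GOT1 and GOT2, the cytosolic and mitochondrial aspartate aminotransferases, differed in level and in pattern. In IgG control 1, 2 and 3 the level of GOT1 was 11.0, 11.5 and 10.7 FPKM, and in anti-ENG 1, 2 and 3 it was 16.9, 14.0 and 13.7 FPKM. The IgG tumours agreed closely for GOT1, all 3 anti-ENG tumours were higher under all 5 scalings, and the log2 fold change was 0.39 (SE 0.12, limma adjusted p = 0.529). GOT2 was 7.61 to 15.0 times as abundant per length, overlapped between the groups, and had a log2 fold change of 0.18 (SE 0.17). PYCR1 and ALDH18A1, which make proline, had their lowest anti-ENG values in anti-ENG 2, inside or near the IgG range. Levels of PYCR1 were 15.9, 17.1 and 14.4 FPKM in the 3 IgG tumours (1, 2 and 3) and 20.9, 15.1 and 20.4 FPKM in the 3 anti-ENG tumours. For ALDH18A1 the IgG tumours held 36.2, 31.6 and 31.8 FPKM and the anti-ENG tumours 46.2, 32.8 and 44.1 FPKM, each in the order 1, 2 and 3. For both, anti-ENG 1 and 3 were above every IgG tumour and anti-ENG 2 was not, and the log2 fold changes were 0.23 and 0.28. GPT2, the mitochondrial alanine aminotransferase, lay between 6.65 and 8.88 FPKM, with a log2 fold change of 0.084 that turned to -0.023 with same-sum rescaling.

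Of the 7 transporters 3 had higher and 4 lower estimates under anti-ENG, and 1 was higher with same-sum rescaling. Without the end tumours 6 were higher and 1 lower, with a median of 0.055. SLC7A5 and SLC3A2 form LAT1, the exchanger that brings leucine and other large neutral amino acids into cells. SLC7A5 stood at 28.6, 14.1 and 15.4 FPKM under IgG (tumours 1, 2 and 3) and at 15.6, 9.90 and 25.7 FPKM under anti-ENG. The highest values were in IgG control 1 and anti-ENG 3, 1 from each group, and the log2 fold change was -0.20 (SE 0.37). Leaving out IgG control 1 gave 0.10, and leaving out anti-ENG 3 gave -0.53. Pseudogene copies of SLC7A5 are listed in the table as well, and the sources used here do not say how reads were shared with them. SLC3A2, its heavy chain, was 1.92 to 4.25 times as abundant per length as SLC7A5, with a log2 fold change of 0.15 (SE 0.18).

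SLC7A1, the arginine and lysine carrier CAT1, split the tumours in a similar way. In IgG control 1, 2 and 3 the level of SLC7A1 was 24.3, 15.9 and 19.6 FPKM, and in anti-ENG 1, 2 and 3 it was 13.6, 14.8 and 22.7 FPKM. IgG control 1 and anti-ENG 3 were again the highest, and the log2 fold change was -0.23 (SE 0.22). SLC1A4, a carrier of small neutral amino acids, lay between 2.99 and 5.81 FPKM, with a log2 fold change of -0.19. SLC1A5, the glutamine carrier ASCT2, varied little, from 67.7 to 80.9 FPKM, and its log2 fold change of 0.090 (SE 0.11) turned below 0 under 3 of the 4 other scalings. Its interval of -0.17 to 0.35 leaves room for a modest difference in either direction. SLC38A2, the sodium-coupled carrier SNAT2 and a known ATF4 target, ran from 81.9 to 96.7 FPKM, a log2 fold change of -0.031 (SE 0.12). SLC38A1 had 0.042 (SE 0.14), or -0.074 with same-sum rescaling.

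**Figure D3:**
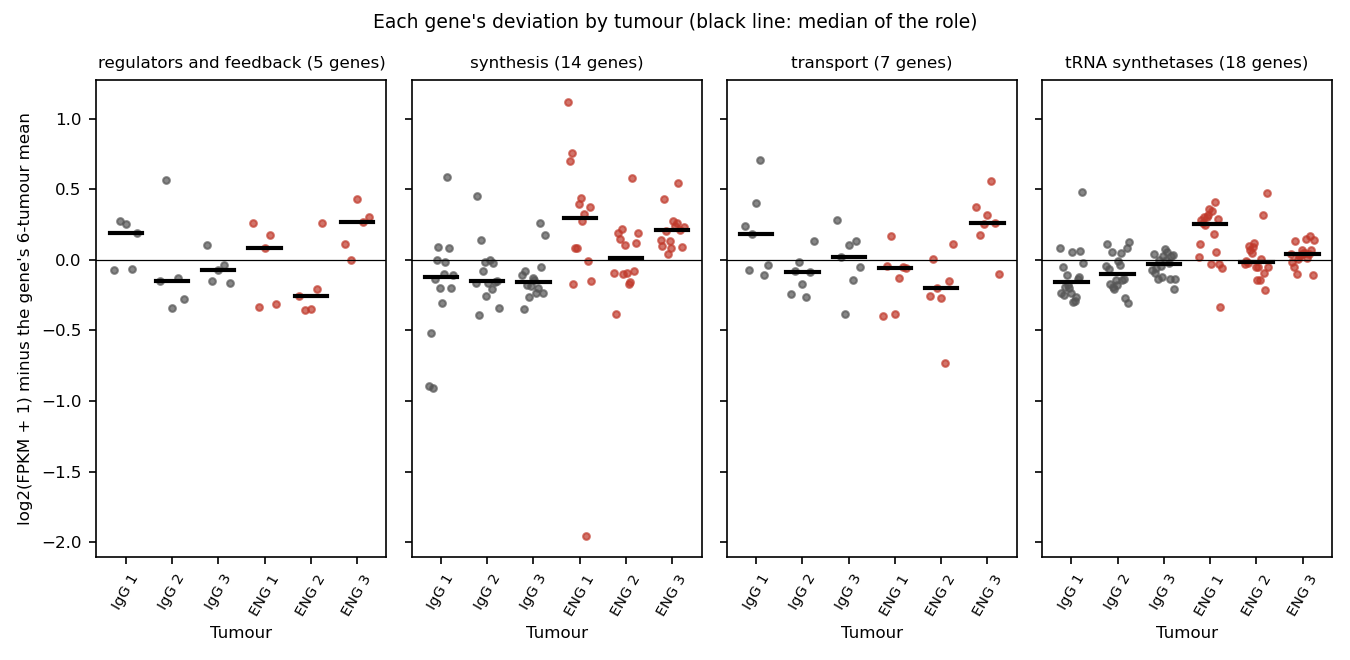
For each tumour, log2(FPKM + 1) of each gene minus that gene's mean over the 6 tumours, in 4 panels by role, with the role's median as a black line. The synthetase medians run from -0.16 in IgG control 1 to 0.25 in anti-ENG 1, while the transport medians are highest in anti-ENG 3 (0.26) and IgG control 1 (0.18) and lowest in anti-ENG 2 (-0.20).

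The roles ordered the tumours differently. For the synthesis genes the median deviation from the 6-tumour mean was -0.12, -0.15 and -0.16 in IgG control 1, 2 and 3 and 0.30, 0.014 and 0.21 in anti-ENG 1, 2 and 3. For the synthetases it was -0.16, -0.098 and -0.032 under IgG and 0.25, -0.017 and 0.039 under anti-ENG. In both roles the anti-ENG medians lay above the IgG medians, with anti-ENG 2 closest to them. For transport the values were 0.18, -0.088 and 0.019 under IgG and -0.059, -0.20 and 0.26 under anti-ENG, and the groups overlapped. For the regulators they were 0.19, -0.15 and -0.075 under IgG and 0.084, -0.25 and 0.27 under anti-ENG, also with overlap. Anti-ENG 1 and 2, which share a code number, lay on opposite sides for the regulators.

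The cytosolic tRNA synthetases, each of which joins 1 amino acid (2 for EPRS) to its tRNAs, were all well expressed, from a mean of 26.0 FPKM for AARS to 124 FPKM for TARS. By mean level per length over the 6 tumours the order ran from TARS, NARS and RARS through HARS and KARS to EPRS, VARS and AARS, and the first 2 differed by less than their spread within a group. Of the 18, 16 had higher estimates under anti-ENG, and 12 did with same-sum rescaling, quantile or cyclic loess normalization and 13 with upper quartile rescaling. Differences were small, with log2 fold changes from -0.12 for VARS to 0.32 for EPRS.

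EPRS, the enzyme for glutamate and proline, kept its groups apart under all 5 scalings. Levels of EPRS were 29.6, 31.4 and 34.0 FPKM in the 3 IgG tumours (1, 2 and 3) and 42.6, 38.0 and 39.0 FPKM in the 3 anti-ENG tumours. All 3 anti-ENG tumours exceeded the highest IgG tumour, and the log2 fold change was 0.32 (SE 0.11, limma adjusted p = 0.529). KARS, the lysine enzyme, did so as well. For KARS the IgG tumours held 66.5, 69.1 and 70.1 FPKM and the anti-ENG tumours 95.6, 83.4 and 78.3 FPKM, each in the order 1, 2 and 3. The IgG tumours spanned 3.67 FPKM, and the log2 fold change was 0.31 (SE 0.12, limma adjusted p = 0.529). SARS, the serine enzyme, had the smallest spread of the 44 genes under IgG, with a coefficient of variation of 0.191%. SARS stood at 47.1, 47.2 and 47.1 FPKM under IgG (tumours 1, 2 and 3) and at 53.9, 64.8 and 53.3 FPKM under anti-ENG. Anti-ENG 2 was highest here, the log2 fold change was 0.27 (SE 0.12), and the groups overlapped with same-sum rescaling. The groups also lay apart for IARS (0.28), RARS (0.28) and HARS (0.20), the isoleucine, arginine and histidine enzymes. They overlapped for IARS after 3 of the other 4 scalings and for RARS and HARS after all 4.

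Higher estimates with overlapping groups were found for LARS (0.26), TARS (0.24), NARS (0.23), GARS (0.18), DARS (0.14) and QARS (0.12), the enzymes for leucine, threonine, asparagine, glycine, aspartate and glutamine. In LARS, TARS, NARS, GARS, DARS and QARS the highest value was in anti-ENG 1. CARS (0.056), AARS (0.022) and YARS (0.023), for cysteine, alanine and tyrosine, were near 0 and turned below 0 under at least 3 of the 4 other scalings. MARS (-0.084) and VARS (-0.12), for methionine and valine, had lower estimates under every scaling. For MARS the anti-ENG tumours all lay below the IgG tumours after same-sum, quantile and cyclic loess scaling, and for VARS after same-sum and cyclic loess scaling.

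WARS, the tryptophan enzyme, which interferon also induces, varied most among the synthetases. In IgG control 1, 2 and 3 the level of WARS was 61.5, 35.3 and 37.8 FPKM, and in anti-ENG 1, 2 and 3 it was 34.6, 61.3 and 40.7 FPKM. IgG control 1 and anti-ENG 2 stood apart from the other 4 tumours, 1 from each group. The log2 fold change was 0.024 (SE 0.27), below 0 under the 4 other scalings.

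A set of 8 synthetases sits in the multi-synthetase complex, a large assembly of charging enzymes: DARS, EPRS, IARS, KARS, LARS, MARS, QARS and RARS. Of these, 7 had higher estimates under all 5 scalings. Under the deposited scaling the median log2 fold change of the 8 was 0.27. There 4 of the 8 (50%) had groups apart, against 24.4% of all genes in the same range of levels. Only EPRS and KARS kept anti-ENG above under all 5 scalings. Anti-ENG 1 held the highest value in 7 of the 8, and MARS was the exception. Among the other 10 synthetases 9 had higher estimates, with a median of 0.12, and 2 (20%) had groups apart, against 22.7% in their range of levels. With same-sum rescaling 5 of these 10 were higher. Without the end tumours the medians were 0.087 for the complex and 0.058 for the other synthetases. After cyclic loess normalization they were 0.14 and 0.019. The difference between the 2 sets was not tested.

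**Figure D4:**
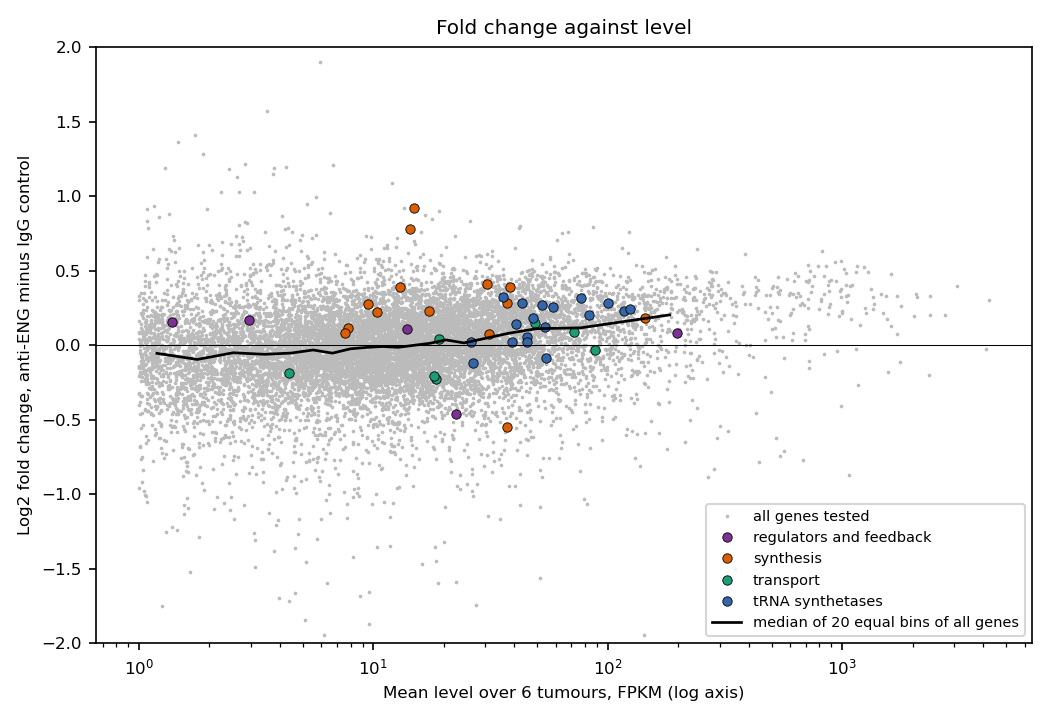
Log2 fold change (anti-ENG minus IgG) against mean FPKM on a log axis, with all 12586 genes tested in grey, the 44 genes coloured by role and a black line through the medians of 20 equal bins of all genes; 5 genes beyond the vertical limits are not drawn. The line runs from -0.055 in the lowest bin to 0.20 in the highest, and most synthetases sit above 0 in its right part.

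The fold changes of all genes varied with level, with a median from -0.055 in the lowest of 20 bins to 0.20 in the highest. Between the lowest and highest mean level of the synthetases lay 2724 genes, of which 64.3% had higher estimates, with a median of 0.088 and groups apart in 22.7%. The synthetases had 88.9% higher, a median of 0.19 and groups apart in 33.3%. In the level range of the synthesis genes lay 7647 genes, with a median of 0.030, 55.7% higher and groups apart in 18.9%, where the synthesis genes had 0.25, 92.9% and 42.9%. After cyclic loess normalization, which removes such a trend with level, the synthetase median was 0.070 and the synthesis median 0.22.

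Cell division markers also had higher levels under anti-ENG. Their 8 members summed to 246, 274 and 283 FPKM in IgG control 1, 2 and 3 and to 456, 328 and 318 FPKM in anti-ENG 1, 2 and 3. All 8 had higher estimates under every scaling, the groups did not overlap in the sum, and anti-ENG 1 was highest and IgG control 1 lowest. Their median log2 fold change was 0.42, and 0.14 without the end tumours, where all 8 were still higher. Fibroblast markers summed to 371 to 700 FPKM under IgG and 203 to 450 under anti-ENG, with the lowest sum in anti-ENG 1 and the highest in IgG control 1. Of these 8 markers 7 had lower estimates and 1 higher, with a median log2 fold change of -0.89. Their groups lay apart in 1 of 8 (12.5%), against 18.8% of all genes in the same range of levels. The part of either in the differences of the 44 genes was not tested.

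The wider stress response was counted in the same way. Of 18 other ATF4-linked stress genes 15 were tested, with 4 higher and 11 lower estimates and a median of -0.041. Groups lay apart in 0 of these 15, against 16.9% of all genes in the same range of levels. Without the end tumours 10 of the 15 were higher and 5 lower, with a median of 0.11. Without IgG control 1 or without anti-ENG 1 there were 7 higher and 8 lower. VEGFA, the vessel growth factor, had -0.59 and GDF15, a stress cytokine, -0.86 (SE 0.19 and 0.54). CBS, JDP2 and FGF21 did not pass the filter. Of 16 genes of the unfolded protein response outside the ATF4 branch, such as the chaperone gene HSPA5, 15 had lower estimates, with a median of -0.19. Groups lay apart in 0 of these 16, against 18.2% of all genes in the same range of levels. DNAJB9 had -0.49 and CRELD2 -0.21. That direction rested on the end tumours: 4 of the 16 were lower without both, 8 without IgG control 1 and 10 without anti-ENG 1.

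Upstream, 9 genes for eIF2 kinases, phosphatase subunits and eIF2 itself divided into 4 higher and 5 lower. Higher estimates with groups apart were found for EIF2S1 (0.36) and EIF2S2 (0.35), both subunits of eIF2. These 2 of 9 genes (22.2%) stood against 18.3% of all genes in the same range of levels, a similar share. Levels of EIF2S1 were 33.0, 33.2 and 32.7 FPKM in the 3 IgG tumours (1, 2 and 3) and 52.7, 39.5 and 37.3 FPKM in the 3 anti-ENG tumours. The IgG tumours spanned 0.540 FPKM and all anti-ENG tumours lay above them, with a limma adjusted p = 0.529. Of 20 genes of mTORC1 and amino acid sensing, 17 were tested, with 11 higher and 6 lower (5 higher with same-sum rescaling, 8 higher without IgG control 1). LAMTOR1, part of the lysosomal anchor of mTORC1, had 0.31, and SLC38A9, a lysosomal arginine sensor, had 0.25, both with anti-ENG above in all tumours. MTOR (-0.14), the kinase itself, and RPTOR (-0.14), its scaffold partner, had groups apart with anti-ENG below. In this list groups lay apart in 4 of 17 genes (23.5%), against 17.0% of all genes in the same range of levels.

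Other transporters were more often lower: of 24 listed 17 were tested, with 5 higher and 12 lower and a median of -0.17. Groups lay apart downward for SLC1A3, a glutamate and aspartate carrier (-0.62), and SLC7A6, a basic amino acid exchanger (-0.26), and upward for SLC38A9 (0.25) and the mitochondrial ornithine carrier SLC25A15 (0.21). These 4 of 17 (23.5%) stood against 14.6% of all genes in the same range of levels. Without the end tumours 7 of the 17 transporters were higher and 10 lower, with a median of -0.069. Of 28 further enzymes 22 were tested, 13 higher and 9 lower, among them GCSH of glycine cleavage (0.50) and AHCY of the methionine cycle (0.39), both with groups apart upward. Among the 22 enzymes groups lay apart in 3 (13.6%), 1 of them downward, against 16.3% of all genes in the same range of levels. Of the 17 mitochondrial synthetases 12 were higher, with a median of 0.092, and 6 were higher with same-sum rescaling. Without IgG control 1 there were 8 higher and 9 lower, with a median of -0.029, and without the end tumours the median was 0.019. AARS2 had -0.22 with overlap. All 6 remaining charging factors were higher (5 with same-sum rescaling), including the complex scaffolds AIMP2 (0.43) and EEF1E1 (0.36). Of the 6 only AIMP2 (16.7%) had groups apart, against 16.9% of all genes in the same range of levels. The median of the 6 factors was 0.16, and without the end tumours 3 were higher and 3 lower, with a median of 0.018. None of these genes passed the limma threshold, where the smallest adjusted p over all genes was 0.529.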

How the data were processed

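RNA of 6 tumours was measured by sequencing of polyadenylated RNA, per the labels' protocols. More than 1 library kit and sequencer are named there, with no word on which tumour got which, so a difference between groups in kit or instrument could not be told apart from treatment. The authors deposited 1 table of FPKM values with 6 columns, matched to the tumours by the labels' descriptions. Per the submitters' processing notes the tools included TopHat2 2.0.10, Cufflinks 2.2.1 and Cuffnorm on GRCh37. The sources used here do not give the scaling, the use of strand or the handling of mouse reads.

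Since FPKM values are no counts, log2(FPKM + 1) was fitted with limma 3.58.1 (R 4.3.3), using a trended variance and only the group as a term. Entry needed a mean of 1 FPKM or more, which 12586 genes met. Fold changes on this scale understate those of low genes. Two-sided p-values were adjusted over all genes tested by the Benjamini-Hochberg method (threshold 0.05). Single values were also compared by an exact permutation test. The limma fit was first tested on simulated data with independent noise in every gene and tumour, which does not cover tumours that share a mouse. Groups are called apart when every tumour of one lies above every tumour of the other. The 44 genes, the other gene lists and the tests were chosen with earlier results of these data known. Named are the 44 genes, ENG and, of each list of other pathway genes, the 2 of smallest unadjusted p, apart from 1 gene not reported here. Other genes, such as markers, were named after their values were seen. CASTOR1 was not matched in the table under that symbol. Gene and protein sequences of the human genes were not used here. Alternatives covered the pseudocount (0.1 or 5), the filter (none, or a mean of 5 FPKM), 4 scalings, the variance model, array weights, blocking and leaving out tumours. Leaving out the pair of end tumours (IgG control 1 with anti-ENG 1) was added after seeing the data.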

Additional observations from a re-analysis of the deposited data

How the results depend on the processing

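In every one of the 19 alternatives 0 genes passed limma's adjusted threshold, as in the reported comparison, where 1154 genes stood at an unadjusted p under 0.05 (662 to 1566 in the alternatives). The median of the 44 genes was 0.047 with same-sum rescaling, where the synthesis median was 0.14 and the synthetase median 0.072, and all genes shifted too. The synthetase median was 0.070 after cyclic loess normalization and 0.075 without the end tumours, IgG control 1 and anti-ENG 1. Leaving out 1 tumour at a time gave medians of 0.083 to 0.19 for the 44 genes, 0.21 to 0.40 for synthesis (highest without anti-ENG 2), 0.12 to 0.23 for the synthetases, 0.024 to 0.23 for the regulators and -0.078 to 0.11 for transport. Genes with groups apart numbered 14 to 21 with 1 tumour left out, 24 with tumours of 1 code number averaged and 21 without both end tumours. Fewer tumours make separation easier, and all genes then had groups apart in 23.2 to 33.2%, 41.2% and 38.0%. Estimates that changed sign, none of them called, were ATF4 at -0.042, TRIB3 at -0.0030, SHMT2 at -0.042, GPT2 at -0.023, SLC1A5 at -0.030, SLC38A1 at -0.074, AARS at -0.095, CARS at -0.063, WARS at -0.094 and YARS at -0.096 with same-sum rescaling; ATF4 at -0.058, SLC1A5 at -0.0093, AARS at -0.0018, CARS at -0.035, WARS at -0.036 and YARS at -0.049 with quantile normalization; ATF4 at -0.12, SLC1A5 at -0.033, AARS at -0.031, CARS at -0.034, WARS at -0.064 and YARS at -0.057 with cyclic loess normalization; and AARS at -0.0073, WARS at -0.0054 and YARS at -0.0072 with upper quartile rescaling. They were SLC7A5 at 0.011 and CARS at -0.022 with array weights, WARS at -0.13 with code numbers averaged, and ATF4 at -0.049, PHGDH at -0.20, ASS1 at 0.44, SLC1A4 at 0.038, SLC7A1 at 0.055, SLC7A5 at 0.11, CARS at -0.090 and QARS at -0.049 without both end tumours. With 1 tumour left out, ranges that crossed 0 were AARS -0.0086 to 0.069, ASS1 -0.98 to 0.29, ATF4 -0.032 to 0.23, CARS -0.048 to 0.12, GPT2 -0.00070 to 0.15, PHGDH -0.0082 to 0.57, SLC38A1 -0.078 to 0.13, SLC38A2 -0.10 to 0.029, SLC3A2 -0.0053 to 0.29, SLC7A5 -0.53 to 0.11, TRIB3 -0.077 to 0.31, WARS -0.21 to 0.27 and YARS -0.042 to 0.090. Beyond the scaling settings, whose construction moves all genes, the cause was not tested. Deviations of same-numbered tumours correlated at -0.33, 0.19 and 0.037 across genes, and those of differently numbered tumours at -0.49 to 0.35. With 3 tumours per group this cannot show whether the replicate numbers pair the tumours. With the number as a replicate block 0 genes were called, 842 stood at an unadjusted p under 0.05, and the median of the 44 genes was 0.15. Depth is unknown, so no counting error can be given for low genes such as CHAC1.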
